A study of Homo sapiens with 4 samples.

Results

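The 8 genes described here encode the oxidative stress pathway that runs through NRF2, and were taken by gene symbol from the lists of m6A peaks of CaSki cells kept at 37 °C or heated to 42 °C for 60 min. They are the pathway's regulators NFE2L2, KEAP1, SQSTM1 and MAFG, and HMOX1, TXNRD1, GCLC and GCLM, which are target enzymes. Of these 8 genes, 5 had at least 1 listed peak (4 genes in control cells and 5 in heated cells), among 8220 genes with a peak in either list. SQSTM1, MAFG and GCLM had no row in either list.

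NRF2, the product of NFE2L2, is a transcription factor that is held in the cytoplasm and passed to the proteasome by KEAP1, an adaptor of the CUL3 ubiquitin ligase. Oxidants and electrophiles modify cysteines of KEAP1, NRF2 escapes degradation, and with a small MAF protein such as MAFG it binds antioxidant response elements of genes for glutathione synthesis, thioredoxin reduction and heme breakdown. SQSTM1, an autophagy receptor, binds KEAP1 and is itself a target of NRF2. HMOX1 is also known as a heat shock gene. N6-methyladenosine (m6A) is an abundant methyl mark within mRNA and is known to act on splicing, translation and decay of the transcripts that carry it.

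CaSki is a human cell line from a squamous carcinoma of the cervix, with papillomavirus DNA integrated in its genome. Each of the 2 conditions had 1 m6A library, enriched with a commercial kit, and 1 matching input library, which makes 4 libraries without replicates. Control cells were cultured at 37 °C, and heated cells came from the same line and medium and were kept at 42 °C for 60 min. The comparison addresses how heat stress alters m6A. The authors' peak lists held 14367 peaks for control and 15472 for heat, with a median fold enrichment of 43.3 and 31.6 and a false discovery rate listed at 100% for 48.5% and 53.2% of peaks. Fold enrichment is immunoprecipitated signal over the caller's estimate of background, and the significance score is 10 times the negative log10 of a peak's p-value. Both are the authors' values for 1 peak within its list, and since the scaling between libraries is not given they are set side by side below and not compared as a change. The depth behind each peak is unknown, and the design allows no test between conditions. Of 16 epithelial markers 8 had a control peak (18 peaks) and 12 a heat peak (31 peaks), with KRT18, KRT19 and PKP1 in neither list, against 0 of 8 immune, 1 of 7 fibroblast and 1 of 5 endothelial markers with a peak in either list. Methylation and RNA amount cannot be told apart in these lists, nor can fewer cells with a transcript and less of it per cell.

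Most of the pathway genes with a peak had peaks in both conditions. NFE2L2, KEAP1, HMOX1 and GCLC were listed in both, TXNRD1 in heat only and none in control only. Over all 8220 genes with a peak, 73.4% were in both lists (95% Wilson interval 72.4 to 74.3%), 13.2% in heat only (12.4 to 13.9%) and 13.5% in control only (12.8 to 14.2%). In all, the pathway genes carried 7 control peaks covering 5059 bases and 10 heat peaks covering 5305 bases. An overlap of at least 1 base with the other list was found for 6 of 7 peaks in control and 6 of 10 in heat, which leaves 1 and 4 on their own. The share of peaks without such an overlap was 28.3% over the whole control list and 33.3% over the whole heat list. In 5 cases the start and the end were the same in both lists, as for 47.2% of all control and 43.8% of all heat peaks.

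**Figure D1:**
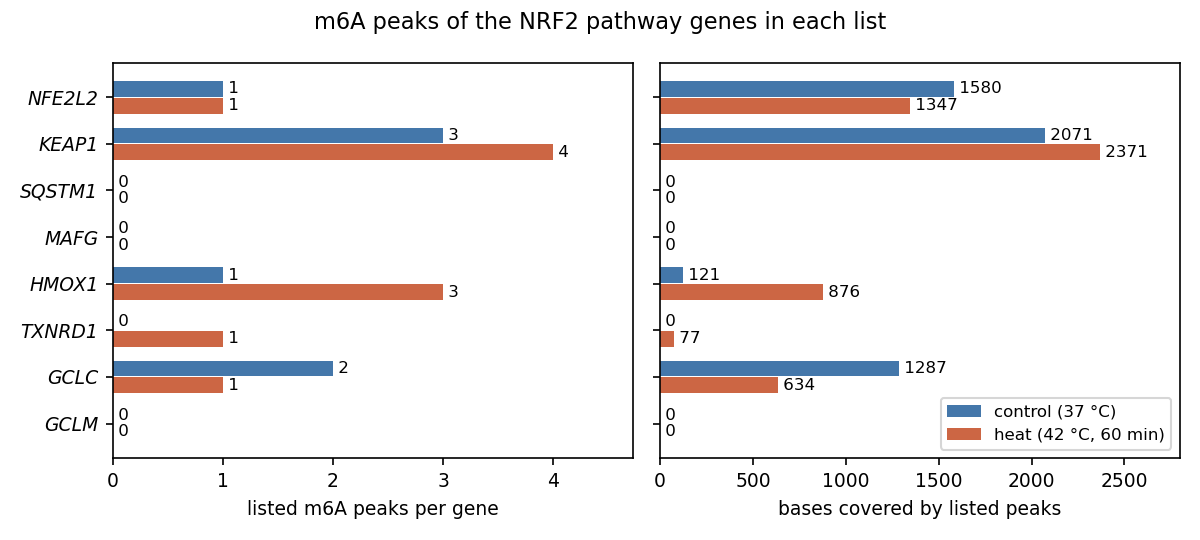
Number of listed m6A peaks (left) and bases that they cover (right) for each pathway gene, 1 bar per peak list, with no error bars because each condition had 1 immunoprecipitated library. HMOX1 went from 1 peak to 3 and GCLC from 2 to 1, and SQSTM1, MAFG and GCLM were at 0 in both lists.

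Promoter sequence was searched for the element through which NRF2 is known to act, since the genes were grouped by that factor. RefSeq windows (GRCh38.p14) of 250 bases before to 50 after a gene's start were found for 7 of the 8 genes, in 12 windows. HMOX1 had none in the table. The core of the antioxidant response element, TGACNNNGC on either strand, was in 4 of the 12 windows, those of KEAP1, TXNRD1 and GCLM, and in 13.3% of all 35116 windows. The pair of inverted heat shock units GAANNTTC, bound by heat shock factors, was in 0 of the 12, and in 6.77% of all windows. The 12 windows held 6 matches. The stretches below lie before the start, are written along the gene's strand, and show 5 of them in capitals with up to 20 bases on each side; the other, on the opposite strand of the first TXNRD1 window, reaches the start and is not printed. The first is chr19:10502774-10502845 (minus strand), the next chr12:104215660-104215708 and chr12:104286910-104286958 (plus strand, 2 starts of TXNRD1), and the last chr1:93909436-93909484 (minus strand).
KEAP1: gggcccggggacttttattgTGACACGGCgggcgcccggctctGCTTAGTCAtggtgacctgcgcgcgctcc
TXNRD1 first start: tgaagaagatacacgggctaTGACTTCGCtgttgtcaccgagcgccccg
TXNRD1 second start: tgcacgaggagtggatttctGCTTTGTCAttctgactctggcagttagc
GCLM: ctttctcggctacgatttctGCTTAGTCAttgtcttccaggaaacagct
Of the printed matches, the second of KEAP1, that of the second TXNRD1 start and that of GCLM read on the opposite strand. A match is a description of these letters, and these stretches are not the peak regions, whose sequence was not used here. Sequence outside the windows was not searched, so a window without a match does not show that the gene lacks such an element.

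KEAP1, the sensor that holds NRF2 in check, had the most peaks of the pathway genes. It carried 3 peaks in control and 4 in heat, on chromosome 19 (hg19). RefSeq places the gene on the minus strand, so the leftmost peak is the nearest to the 3′ end of the transcript. That peak, at 10596796 to 10597494, had a fold enrichment of 746 in the control list, where it ranked 34 of 14367 peaks by fold. Its control score was 3100, the most frequent score over both lists, where scores level off. Since 1466 control peaks had a score of 3100 or more, its rank of 69 by score was a tied one. By score it stood at the 94.7th percentile of the control list. In the heat list the same region had a fold of 29.1 and a score of 412, at the 45.4th percentile of that list by fold. Its listed false discovery rate was 18.5% in control and 46.9% in heat.

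The second peak of KEAP1, at 10602253 to 10602938, stood the other way round within the gene. It had a fold of 27.2 in control (23.6th percentile of that list) and 82.9 in heat (89.6th percentile), with scores of 812 and 1848. The third, at 10610071 to 10610756, had folds of 16.4 and 28.6 and scores of 104 and 400. All 3 regions had identical boundaries in the lists, lay 4758 and 7132 bases apart, and were of 699, 686 and 686 bases. Over these 3 regions the highest fold was 45.5 times the lowest in control and 2.89 times the lowest in heat. The peak with the highest fold was the one nearest the 3′ end in control, and the second in heat. A move of the highest fold to another of the identical peaks was common: it was found in 48.3% of 319 genes with exactly 3 such peaks (42.8 to 53.7%) and in 44.8% of 1451 genes with at least 2.

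A KEAP1 peak of 300 bases at 10613064 to 10613363 was listed in heat alone. It was the closest to the 5′ end and the weakest of the 4, with a fold of 23.3, a score of 63.7 and a false discovery rate of 100%, where the lowest listed score is 50. The files assign it to an Ensembl transcript, and the other 3 peaks to a RefSeq transcript. Such assignments made up 10.1% of all control and 10.2% of all heat peaks, and 0 of 7 and 2 of 10 pathway peaks. Between the flanking control peaks, the last of KEAP1 and the first of S1PR5, 2 peak numbers are unlisted. More peaks in heat than in control were found for 25.0% of the 6030 genes in both lists (23.9 to 26.1%), and for 24.5% of those with 3 control peaks.

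**Figure D2:**
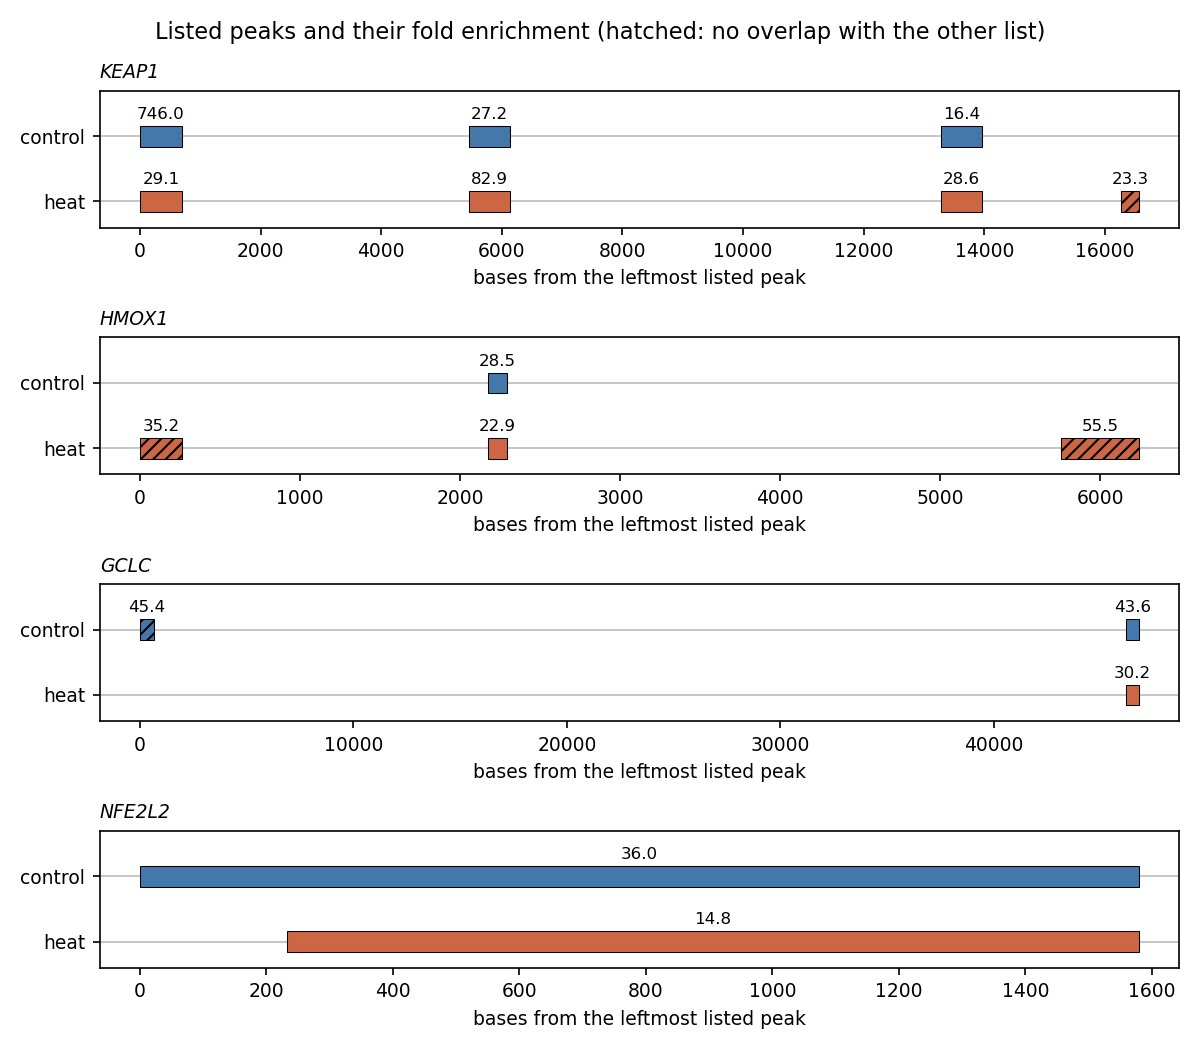
Position of each listed peak of KEAP1, HMOX1, GCLC and NFE2L2 in bases from the gene's leftmost peak along the chromosome (horizontal axis, 1 scale per gene), in the control and heat lists, with the fold enrichment over background above each peak and hatching where no peak of the other list overlaps. The leftmost KEAP1 peak has 746 in control and 29.1 in heat, and the outer HMOX1 peaks are drawn for heat alone.

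NFE2L2, which encodes NRF2 itself, had 1 peak in each list, on chromosome 2. The region ran from 178095157 to 178096736 in control (1580 bases) and from 178095390 to 178096736 in heat (1347 bases). The end was the same, and the start lay 233 bases further in, which on this minus-strand gene is the side towards the 3′ end. The fold was 36.0 in control and 14.8 in heat, at the 39.8th and 9.58th percentile of their lists. The score was 1452 and 336, and the listed false discovery rate 16.1% and 62.4%. NFE2L2 thus had a long region, at the 84.6th and 82.9th percentile of length, with a fold under the median of its list. Its score was above the list's median, at the 81.0th percentile in control and the 63.3rd in heat. Among 3119 overlapping peaks that shared 1 boundary, 58.4% were shorter in heat (56.7 to 60.1%).

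SQSTM1 and MAFG, the other regulators, were in neither list, by symbol or by gene identifier. The listed genes on each side of SQSTM1 in the RefSeq order of chromosome 5 were MAML1 and TBC1D9B. Between their peaks 7 peak numbers are unlisted in control and 14 in heat. For MAFG on chromosome 17, 16 numbers are unlisted in control between PCYT2 and LRRC45, and 6 in heat between PCYT2 and ASPSCR1. The MAFG counts thus cover different stretches and cannot be compared. Whether an unlisted peak lay there is not known, and for a gene with no row, unmethylated RNA and low RNA cannot be told apart.

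HMOX1, the inducible heme oxygenase, had the largest gain in peak number among the pathway genes, from 1 to 3. All lay on chromosome 22. The peak in both lists, at 35779099 to 35779219, was 121 bases long with the same boundaries, a fold of 28.5 in control and 22.9 in heat, and scores of 66.1 and 79.3. HMOX1 is known to be transcribed from the plus strand, so that 1 heat-only peak lay before it and 1 after it along the transcript. The first, at 35776927 to 35777189 (263 bases), had a fold of 35.2 and a score of 78.1, and is assigned to an Ensembl transcript. The last, at 35782678 to 35783169 (492 bases), was the strongest of the gene, with a fold of 55.5 (78.4th percentile of the heat list), a score of 303 and a false discovery rate of 72.8%. The control peak and the remaining heat peaks of HMOX1 had a listed false discovery rate of 100%. With a score above 228 or a false discovery rate under 100%, HMOX1 had 1 more peak in heat than in control.

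The bases covered on HMOX1 were 121 in control and 876 in heat. Of the 2813 genes in both lists with 1 control peak, 7.64% had at least 3 heat peaks (6.72 to 8.68%), or 215 genes. HMOX1 was 1 of these 215. In the control list 3 peak numbers are unlisted between TOM1 and HMOX1, and 3 between HMOX1 and MCM5.

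TXNRD1, the cytosolic thioredoxin reductase, was the member listed in heat alone. It had 1 heat peak of 77 bases at chromosome 12, 104720125 to 104720201, at the 3.23rd percentile of length in the heat list. The fold of 48.4 stood at the 73.0th percentile of the heat list and the score of 167 at the 44.1st, and the false discovery rate was 100%. The flanking control peaks belonged to GLT8D2 and CHST11, with 17 unlisted numbers between them.

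GCLC, the catalytic subunit of glutamate-cysteine ligase, which makes the first and rate-limiting step of glutathione synthesis, went from 2 peaks to 1. The peak in both lists lay at chromosome 6, 53409294 to 53409927 (634 bases), on the side of the 5′ end of this minus-strand gene. Its fold was 43.6 in control and 30.2 in heat, close to the middle of either list (50.5th and 47.5th percentile), with scores of 163 and 183. The control-only peak lay 45528 bases away towards the 3′ end, at 53363113 to 53363765 (653 bases), with a fold of 45.4 and a score of 109. In the heat list 14 numbers are unlisted between ELOVL5 and GCLC. Fewer peaks in heat were found for 20.6% of genes in both lists, and for 33.8% of the 1569 with 2 control peaks (31.5 to 36.2%). All 3 GCLC values had a listed false discovery rate of 100%. GCLM, the modifier subunit of the same enzyme, had no row in either list. Between its listed neighbours on chromosome 1, DNTTIP2 and ARHGAP29 in control, 3 numbers are unlisted. In heat the neighbours were BCAR3 and ARHGAP29, with 15 unlisted numbers, so the counts cover different stretches and cannot be compared.

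By fold, the pathway peaks were spread over much of either list, from the 5.36th percentile (the third KEAP1 peak) to the 99.8th (the first) in control, and from the 9.58th (NFE2L2) to the 89.6th (the second KEAP1 peak) in heat. Control folds ran from 16.4 to 746 with a median of 36.0, and 3 of 7 peaks were above the list's median. Heat folds ran from 14.8 to 82.9 with a median of 29.7, and 4 of 10 were above the list's median. Scores ran from 66.1 to 3100 in control and from 63.7 to 1848 in heat. A false discovery rate of 100% was listed for 4 of 7 peaks in control and 5 of 10 in heat. The peaks below 100% were those of NFE2L2, 2 of the 3 control and 3 of the 4 heat peaks of KEAP1, and in heat the last peak of HMOX1.

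**Figure D3:**
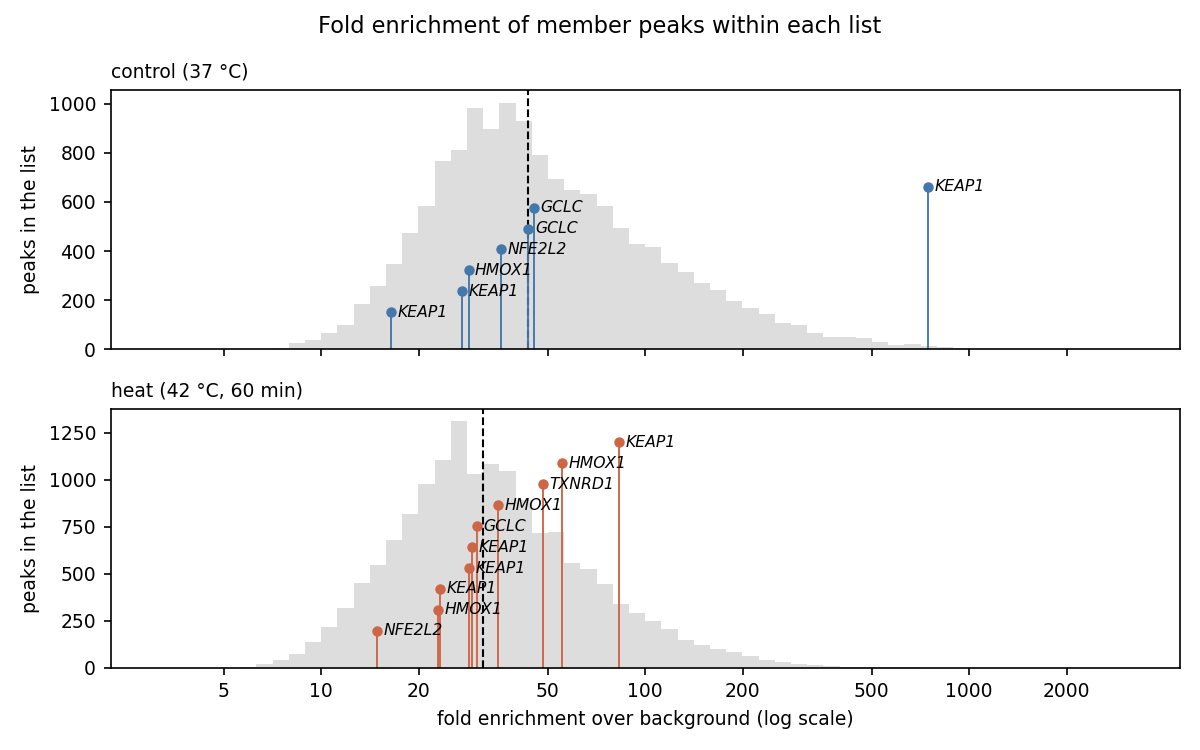
Distribution of fold enrichment over background (log axis) of all peaks in the control list (top) and heat list (bottom), in grey, with the list's median dashed and 1 pin per pathway peak, whose height only separates the names. The control peak of KEAP1 at 746 lies far to the right, and the highest heat pin is KEAP1 at 82.9.

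A wider list of 73 antioxidant and NRF2 genes was read in the same way. Of these, 35 had a peak: 27 in both lists, 5 in control only and 3 in heat only, and 38 had none. The shares over all genes with a peak, as above, were 73.4%, 13.5% and 13.2%. Among the 27 in both lists, 12 had more peaks in heat, 8 equally many and 7 fewer, with a median difference of 0, beside 25.0% with more, 54.3% with equally many and 20.6% with fewer over all genes in both lists. The 73 genes carried 54 control and 59 heat peaks.

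Regulators of the pathway were the role with the most listed genes, 11 of 12. CUL3, the scaffold of the ligase that KEAP1 serves, was in control only with 2 peaks, the stronger of 85.5-fold at chromosome 2, 225338667 to 225339093. MAFF, a small MAF protein, was in control only with 1 peak of 29.5-fold and a score of 81.3. BACH1, the repressor that competes with NRF2 for its elements, had 2 control peaks and 1 heat peak. NFE2L1, a related factor that controls proteasome genes, had 3 and 2, of which those at 46127969 to 46128990 and 46135657 to 46138907 on chromosome 17 had the same boundaries in both lists and scores of 3100. GSK3B, a kinase that marks NRF2 for degradation, had 1 and 2. Its shared peak at chromosome 3, 119812194 to 119813264, had a fold of 39.5 in control and 118 in heat.

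The wider list leaves out the 8 pathway genes and so the heat-only TXNRD1. On it, the glutathione role and the thioredoxin and peroxiredoxin role held 3 control-only genes and 0 heat-only genes, among 12 with a peak. Of all genes with a peak, 13.5% were control-only and 13.2% heat-only. The annotated glutathione metabolism genes, a grouping looked at after the data were seen, leaned the other way. They held 1 control-only and 4 heat-only genes among 15 with a peak, so the direction depends on the genes chosen. SLC7A11, the cystine transporter, had 1 control peak of 48.3-fold, and GSR, glutathione reductase, 1 of 25.0-fold with a score of 64.4. TXN2, the mitochondrial thioredoxin, had 2 control peaks, of 65.9 and 27.4-fold. SRXN1, sulfiredoxin, had 2 control peaks and 1 heat peak: the long region on chromosome 20, 627268 to 629561 in control and 627308 to 629561 in heat, had folds of 25.6 and 11.3. ABCC1, an exporter of glutathione conjugates, had 4 and 3 peaks, with 3 of the same boundaries. Of the 14 thioredoxin and peroxiredoxin genes 10 had no peak, TXN and PRDX1 to PRDX6 among them.

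The role of NADPH and carbon metabolism, not all of whose enzymes make NADPH, gave 3 control and 10 heat peaks over 6 genes. PGD, phosphogluconate dehydrogenase of the pentose phosphate pathway, had 1 control and 5 heat peaks, the largest difference on the wider list. Its control peak at chromosome 1, 10479687 to 10480568, had a fold of 36.6, and the overlapping heat peak, 10479687 to 10480530, one of 18.1. The other 4 heat peaks of PGD were of 70 to 135 bases with folds of 12.9 to 44.9. TKT, transketolase, and TALDO1, transaldolase, were in heat only with 1 peak each, of 20.4 and 11.5-fold. Among heme and iron genes, SLC48A1, a heme transporter, had 1 and 3 peaks, of which that at chromosome 12, 48173928 to 48176536, was identical in both lists. FECH, ferrochelatase, was in heat only with a fold of 26.4 and a score of 57.7, just above the lowest listed.

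**Figure D4:**
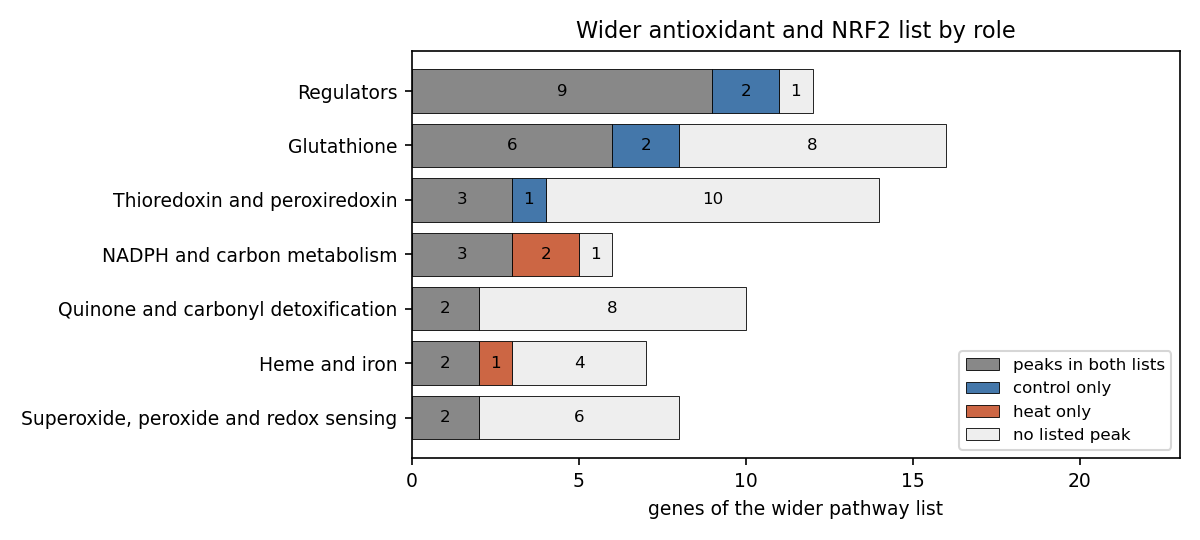
Number of genes of the wider antioxidant and NRF2 list (horizontal axis) by role, divided into genes with peaks in both lists, in control only, in heat only and with no listed peak. Control-only genes lie among regulators, glutathione and thioredoxin genes (2, 2 and 1), a lean that depends on the genes chosen for the list. Heat-only genes lie among the genes of NADPH and carbon metabolism and of heme and iron (2 and 1).

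By number of peaks over the 2 lists, the genes of the wider list most like each pathway gene were named. Ties went to the gene closest in its highest fold. Those nearest to HMOX1 were SLC48A1, with the same 1 and 3 peaks, and GPX8, 1 of 8 genes with 1 and 2. KEAP1 was nearest to HMOX2, the constitutive heme oxygenase, with the same 3 and 4 peaks. ABCC1 came next, by fold among several tied genes, with 4 and 3 peaks and so fewer in heat, unlike KEAP1. GCLC had the same 2 and 1 peaks as SRXN1 and BACH1, NFE2L2 the same 1 and 1 as SLC3A2, and TXNRD1 the same 0 and 1 as FECH and TKT.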

How the data were processed

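Peak lists from 1 immunoprecipitated library against its input per condition were analysed. The submitters' processing notes name cutadapt 1.9.3, STAR and hg19. Per the file headers, peaks carry MACS names; its version was not given in the sources used here. Per the file headers, the authors deposited for each peak a significance score (10 times the negative log10 of its p-value), a fold enrichment, which is a ratio over background, and a false discovery rate in percent. Starts were made 1-based. Peaks were matched to genes by the files' symbols, and shared when they overlapped by at least 1 base, without strand. Listed peaks are 24.6% and 23.9% of the peak numbers, and the remaining numbers were not analysed here. Shares carry 95% Wilson intervals, which cover counting only.

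The members and lists were chosen with earlier results of these data known. Named genes are all members and, of the wider list, up to 6 control-only and 6 heat-only genes by score, the 6 shared genes with the largest difference in peak number (ties by score), and the 2 genes nearest each member in peak number (ties by the closest highest fold); 1 gene that the rule takes is not reported here. The genes named as having no peak, and all flanking genes, were named after the lists were read. Alternatives were limits on fold, score, false discovery rate and list length, and other overlaps. The overlap code, run with Python 3.11.15 and pandas 2.3.3, found all 1500 planted regions in simulated lists of 3000 genes. Peak sequence and position within transcripts were not analysed, since no hg19 genome was used here.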

Additional observations from a re-analysis of the deposited data

How the results depend on the processing

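Each condition had 1 immunoprecipitated library, so no replicate could be left out. For the same reason there were no replicates to pair between conditions. Under a fold above 36.5, 1 pathway gene stayed in both lists (KEAP1), 1 was control only (GCLC) and 2 were heat only (HMOX1 and TXNRD1), beside 3428, 1974 and 797 of all genes. The pathway then had 3 control and 3 heat peaks over 1986 and 1255 bases, with 0 overlapping in either list and 0 genes with more or fewer peaks in heat, and 17 wider-list genes were in both lists. A score above 228, a false discovery rate under 100% and the 7183 top peaks of each list gave the same pathway counts: 2 genes in both lists (KEAP1 and NFE2L2), 5 in neither, 3 control peaks over 2965 bases and 5 heat peaks, 3 overlapping in each list, 1 gene with more peaks in heat (not counting HMOX1, then heat only) and 0 with fewer. Under these 3 settings 14 wider-list genes were in both lists, and 9 were control only by score and 8 by false discovery rate. Over all genes these limits also left more control-only than heat-only genes, 1323 and 749 by score and 1218 and 795 by false discovery rate. Neither TXNRD1 nor GCLC had a peak left under them. With 14367 top peaks per list, and with overlaps of 50% of the shorter peak, of both peaks or of identical limits, the pathway counts stayed within 1.5 times. Leaving out peaks of Ensembl transcripts, chosen after seeing the data, left 1 gene with more peaks in heat (HMOX1, 1 and 2) and 2 with equally many. Of 30 single-gene differences in peak number under these alternatives 16 were unchanged, 14 moved and 0 reversed. Those of KEAP1, TXNRD1 and GCLC fell to 0 under some of the alternatives. Replacing the wider list by the files' glutathione metabolism genes, also chosen afterwards, gave 10 genes in both lists, 1 control only and 4 heat only. The position of peaks within transcripts was not run. Read depth is unknown, which limits what an absent peak means.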

Other observations

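The files' own annotation places 15 genes with a peak in glutathione metabolism, a grouping looked at after the data were seen. Of these, 10 were in both lists, 1 in control only (GSR) and 4 in heat only, where all genes with a peak gave 73.4%, 13.5% and 13.2%. The heat-only genes were GSTK1, a glutathione transferase, with 2 peaks (stronger 20.8-fold), RRM1, the large subunit of ribonucleotide reductase, with 2 (59.3-fold), SRM, spermidine synthase, with 1 (21.7-fold), and TXNDC12, a thioredoxin-like protein of the endoplasmic reticulum, with 2 (33.8-fold). IDH2, the mitochondrial isocitrate dehydrogenase that yields NADPH, had 2 control and 4 heat peaks. SMS, spermine synthase, had 3 in each list. GSTO2 had 2 control peaks and 1 heat peak, and GSTT1 had 1 in each list. These counts describe 1 library per condition.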
